A study of Mus musculus with 31 samples.

Results

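The genes of the bone morphogenetic protein (BMP) and transforming growth factor beta (TGF-beta) pathways were followed through pieces of developing olfactory and trigeminal nerve of the mouse. The 37 genes were taken by symbol from a given list, each matched to 1 row by its Ensembl identifier, out of 47729 genes counted. No measured value was used to take a gene, but the list was chosen with earlier results of these data known. They are 10 BMP and GDF ligands, 5 TGF-beta and activin ligands, 9 receptors, 7 secreted antagonists and modulators, 2 inhibitory Smads and the 4 Id genes. All 37 passed the filter on low counts, which kept 19332 genes.

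Ligands of these families are secreted dimers. A ligand brings together type 1 and type 2 receptor kinases at the cell surface, and the type 1 receptor then phosphorylates Smad proteins, which enter the nucleus with Smad4 and act on target genes. BMPs signal mainly through Smad1, Smad5 and Smad9, while TGF-beta, activins and Gdf11 signal mainly through Smad2 and Smad3. Secreted proteins such as Noggin, Chordin and Gremlin hold BMPs away from their receptors, Follistatin does so for activins, and the inhibitory Smads, Smad6 and Smad7, are induced as feedback. Id genes, which encode helix-loop-helix proteins that tie up proneural and other bHLH transcription factors, are well-known BMP targets. In the embryo these factors take part in the patterning of the facial mesenchyme, the olfactory placode and the forebrain, and in the maturation of neural crest-derived glia.

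All embryos carried the Sox10:H2BVenus BAC transgene, in which Sox10 sequences drive a fluorescent histone that marks neural crest-derived glia, and there was no further genotype or treatment. Nerve was cut by laser from cryosections under fluorescence, so that a piece holds glia, axons and the cells between and beside them. At E16.5, where E gives the embryonic day, the groups were olfactory nerve in the mucosa (4 libraries), trigeminal nerve (3), and the outer part (4) and inner part (4) of the olfactory nerve layer (ONL), which wraps the bulb. No tissue boundary separates outer from inner, and inner pieces include some bulb. Olfactory ensheathing cells (OECs) are the glia of the olfactory groups and Schwann cells those of the trigeminal nerve. By the study, the pieces failed to part OECs of the inner layer from those of the outer. Differences between inner and outer pieces are therefore not read as differences between OEC layers. The earlier groups were olfactory nerve at E11.5 (4 libraries) and E13.5 (7) and the ONL at E13.5 (5). By the study's methods 2 embryos gave the E11.5 pieces, 3 the trigeminal pieces and 4 the pieces of every further group. These counts are per stage, so that different groups of E13.5 or of E16.5 can share embryos. Trigeminal pieces came from the same sections as the olfactory pieces of E16.5. The labels do not tie a library to its embryo, and the main fit has no embryo term.

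For the earlier stages the labels and the study's own group averages do not name the same libraries. Least squares found, for 7 of 7 group averages, exactly 1 set of libraries whose mean they are. The E13.5 ONL average is the mean of 5 libraries, whose labels read E11.5 olfactory nerve 1 to 4 and E13.5 olfactory nerve 1, the E13.5 olfactory nerve average that of E13.5 olfactory nerve 2 to 7 and E13.5 ONL 1, and the E11.5 average that of E13.5 ONL 2 to 5. So 10 of the 16 early libraries move and the 15 libraries at E16.5 stay. Groups below follow the averages, in levels and marker sums too, and the test with groups by label is given beside those at E11.5 or E13.5. Differences within E16.5 kept their size by label, but the shared spread changed and some calls were lost, as given with the counts below.

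Totals ran from 3512627 to 36705535 counts per library, and the shallowest library is in the E13.5 ONL group. Levels are CPM, counts scaled to the size of the library with edgeR's TMM factors, listed in the order of the library names, and a ± after a level is the SD of the group. A log2 fold change is that of edgeR's quasi-likelihood fit, with Benjamini-Hochberg adjustment over all 19332 genes, and a gene is called at an adjusted p under 0.05. Lists of marker genes showed what else the pieces held. The summed level of 6 glial genes was 18668 to 32874 CPM in the outer ONL, 20773 to 26084 in inner ONL, 1661 to 3906 in olfactory nerve at E16.5 and 1372 to 1659.6 in trigeminal nerve. The 8 mesenchyme genes summed to 23488 to 27627 CPM in trigeminal nerve, 9552 to 16189.7 in olfactory nerve, 5732 to 11009.5 in outer ONL and 921 to 2168 in inner ONL. The 6 epithelial genes reached 146 to 493 CPM in olfactory nerve at E16.5 against 10.3 to 15.1 in outer ONL, and the 8 genes of bulb and forebrain cells 619.9 to 812 CPM in E13.5 ONL, 147 to 303 in inner ONL and 6.21 to 56.7 in outer ONL. The 6 Schwann cell genes summed to 3278 to 4672 CPM in trigeminal nerve and to no more than 594 CPM in any other group. The glial sum of trigeminal nerve lay below its Schwann cell sum, and the glial list does not measure the share of glia in a piece. Pou4f1, a gene of sensory ganglion neurons, was at 3 counts or fewer in every trigeminal, E16.5 olfactory nerve and outer ONL library. The trigeminal neuron list of 6 genes, which holds Pou4f1, is not particular to trigeminal nerve. It summed to 7.25 to 9.93 CPM there, 58.1 to 98.5 in E16.5 and 107 to 188 in E11.5 olfactory nerve. The bone and cartilage list (8 genes) was highest in E16.5 olfactory nerve, at 781 to 4163 CPM, and overlapped with trigeminal nerve, at 423 to 1149, and the meninges list (6 genes) was highest in E13.5 olfactory nerve, at 1009 to 1338 CPM. Outer ONL 1 had the highest glial sum of its group, 32874 CPM, and the lowest mesenchyme sum, 5732 CPM. It also had the lowest Bmp3, Bmp4, Gdf10, Tgfb3, Bmper and Bmpr1b of the outer ONL. Without it 18 of the 37 genes were called against olfactory nerve, and 3218 of all genes, where all libraries gave 19 and 4256.

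**Figure D1:**
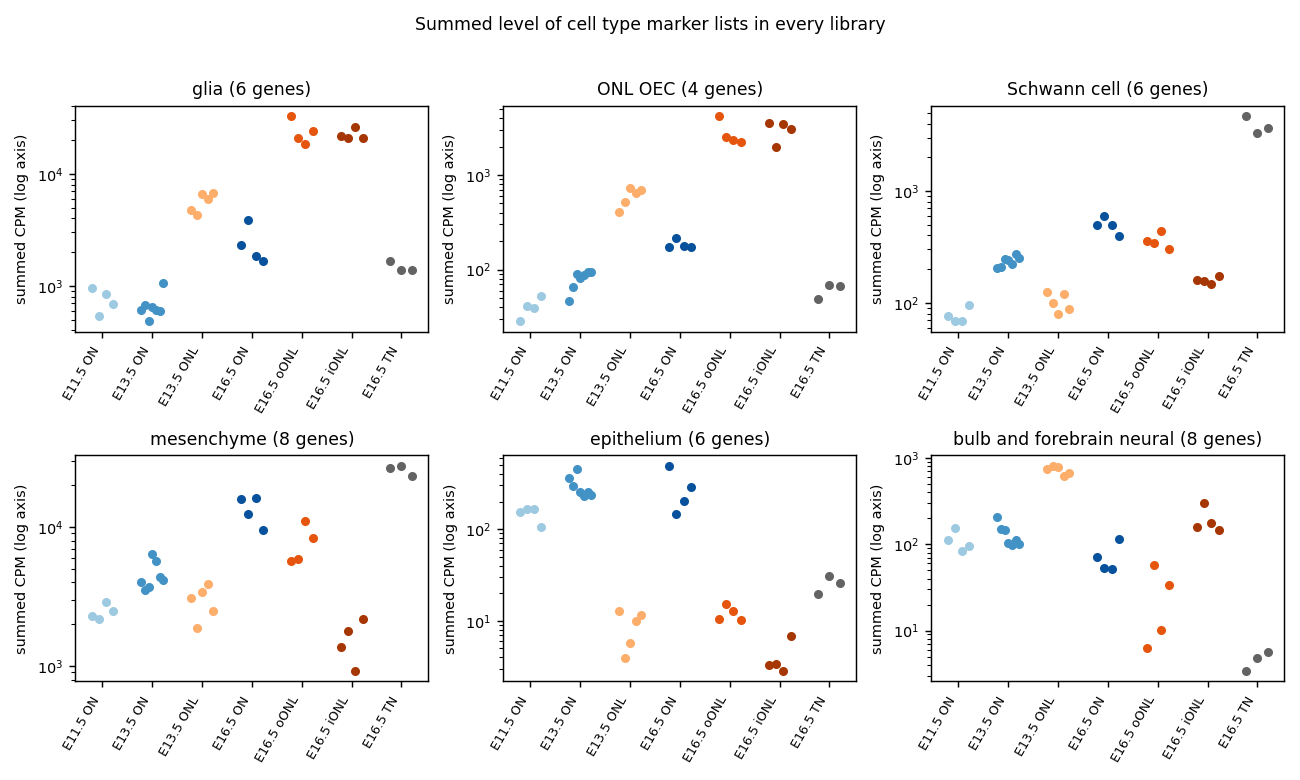
Summed CPM (log axis) of 6 marker lists in each of the 31 libraries, 1 point per library, by group (ON olfactory nerve, oONL and iONL outer and inner ONL, TN trigeminal nerve). The glial and ONL OEC lists were highest in the E16.5 ONL, mesenchyme and Schwann cell lists in trigeminal nerve, and the epithelial list in the olfactory nerve groups.

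The Id genes stand at the receiving end of the pathway and were called in most comparisons below, so the 250 bases before their RefSeq starts are shown for the 3 that have an entry in the RefSeq promoter table (GRCm38.p6). They lie at chr12:25096093-25096342 on the minus strand, chr4:136143572-136143821 on the plus strand and chr13:48260866-48261115 on the plus strand, and are written 5′ to 3′ on the strand of the gene. Gene intervals elsewhere are those of the Ensembl annotation, whose starts differ from RefSeq's, and the stretches of Id2 and Id3 lie inside the Ensembl intervals of these genes. Capitals mark GGCGCC, which is its own reverse complement and is bound by BMP Smads, and GTCTG or its reverse complement CAGAC, the Smad box.
Id2: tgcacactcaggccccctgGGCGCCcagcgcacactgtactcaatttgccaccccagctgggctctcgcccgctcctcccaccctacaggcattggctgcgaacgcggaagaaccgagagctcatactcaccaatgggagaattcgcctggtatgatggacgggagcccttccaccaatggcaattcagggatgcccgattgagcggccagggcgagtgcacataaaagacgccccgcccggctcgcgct
Id3: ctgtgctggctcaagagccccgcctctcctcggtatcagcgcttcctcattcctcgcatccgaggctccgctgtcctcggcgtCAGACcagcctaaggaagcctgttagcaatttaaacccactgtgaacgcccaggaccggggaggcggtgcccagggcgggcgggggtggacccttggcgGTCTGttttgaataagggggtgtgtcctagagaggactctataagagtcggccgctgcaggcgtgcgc
Id4: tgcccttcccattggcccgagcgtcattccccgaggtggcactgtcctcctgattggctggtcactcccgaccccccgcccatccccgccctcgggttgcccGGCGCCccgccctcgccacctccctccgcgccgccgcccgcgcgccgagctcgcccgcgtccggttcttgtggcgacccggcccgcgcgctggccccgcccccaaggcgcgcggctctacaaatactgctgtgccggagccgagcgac
The Id2 stretch holds 1 GGCGCC, 231 bases before the start, and the Id4 stretch 1, 148 bases before the start. The Id3 stretch holds none, and has Smad boxes 167 and 68 bases before the start, which the others lack. Of the 32851 promoters of that length in the table, 9.59% hold GGCGCC and 42.2% a Smad box. Of the 25 pathway genes with an entry, 7 hold GGCGCC (Bmpr1a, Bmpr2, Chrd, Grem1, Id2, Id4 and Tgfbr1) and 11 hold a Smad box. A match describes the letters only.

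**Figure D2:**
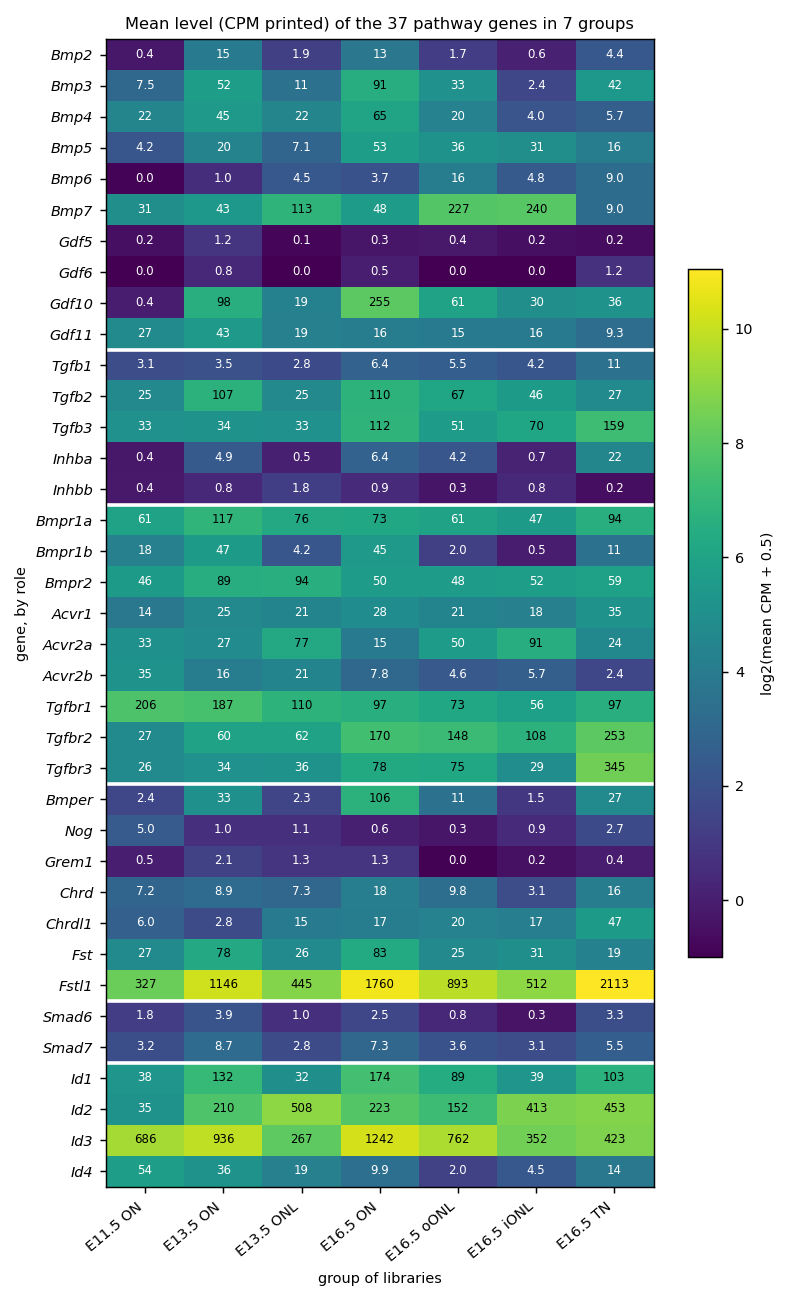
Mean level of the 37 genes (rows, by role) in the 7 groups (columns), with the mean CPM printed and the colour giving log2(mean CPM + 0.5). Gdf5, Gdf6, Grem1, Inhbb and Nog had means at or under 5.03 CPM in every group, and the means of Bmp7 and Acvr2a were higher in the ONL columns than in the nerve columns of the same stage.

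Bmp7, a BMP of the 60A subgroup (chr2:172868012-172940321), was high in the ONL. At E16.5 it stood at 233, 189.7, 247 and 237 CPM in the outer ONL and 237, 195, 261 and 267 CPM in the inner ONL, against 42.6, 44.9, 54.7 and 48.1 CPM in olfactory nerve and 6.81, 9.45 and 10.8 CPM in trigeminal nerve. Every ONL library was above every nerve library. Outer ONL exceeded olfactory nerve by a log2 fold change of 2.25 ± 0.26 (SE, edgeR adjusted p = 1.44e-07) and trigeminal nerve by 4.65 ± 0.33 (SE, edgeR adjusted p = 7.16e-12), and olfactory nerve exceeded trigeminal nerve by 2.40 ± 0.30 (SE, edgeR adjusted p = 3.49e-07). In pieces of tissue, fewer cells of a type and less RNA per cell cannot be told apart. The glial list was also highest in these ONL libraries, and its part in the difference was not tested. Per kilobase of exon, Bmp7 led the 10 BMP and GDF ligands in outer ONL with 56.4 RPKM, ahead of Gdf10 with 11.6, whereas in olfactory nerve Gdf10 (49.0 RPKM) and Bmp4 (29.0) led and Bmp7 was at 11.8.

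Bmp4 (chr14:46383520-46390669), a ligand with early roles in placode and face, was highest in olfactory nerve. It was at 83.3, 37.9, 85.0 and 54.6 CPM in olfactory nerve, 9.28, 22.3, 24.1 and 23.1 CPM in the outer ONL, 2.42, 4.21, 2.43 and 6.93 CPM in the inner ONL and 7.61, 5.95 and 3.68 CPM in trigeminal nerve. The olfactory nerve libraries lay above all others, and the inner ONL and trigeminal libraries overlapped. The log2 fold change was 3.50 ± 0.39 (SE, edgeR adjusted p = 6.60e-08) for olfactory over trigeminal nerve, -1.73 ± 0.32 (SE, edgeR adjusted p = 1.87e-04) for outer ONL over olfactory nerve and 1.78 ± 0.37 (SE, edgeR adjusted p = 4.01e-04) for outer ONL over trigeminal nerve. Inner ONL was below outer ONL at a log2 fold change of -2.29 ± 0.34 (SE, edgeR adjusted p = 1.80e-05) and below olfactory nerve at -4.01 ± 0.36 (SE, edgeR adjusted p = 4.78e-10).

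Bmp2, the closest relative of Bmp4, followed the same order within the olfactory system. Its levels were 14.2, 7.86, 20.3 and 10.6 CPM in olfactory nerve, 0.691, 1.38, 3.20 and 1.71 CPM in the outer ONL, 0.471, 0.527, 0.235 and 1.08 CPM in the inner ONL and 3.14, 5.99 and 4.12 CPM in trigeminal nerve. Neither ONL group overlapped olfactory nerve, and the log2 fold change was -2.92 ± 0.59 (SE, edgeR adjusted p = 4.33e-04) for outer ONL and -4.47 ± 0.65 (SE, edgeR adjusted p = 2.28e-06) for inner ONL. Bmp3, which counteracts other BMPs, was at 76.0, 100.1, 94.8 and 93.9 CPM in olfactory nerve, 6.83, 30.3, 62.6 and 33.9 CPM in the outer ONL, 1.55, 3.16, 1.18 and 3.80 CPM in the inner ONL and 34.6, 46.3 and 46.3 CPM in trigeminal nerve. Outer ONL libraries were widely spread, from 6.83 to 62.6 CPM, yet all were above those of inner ONL. Inner ONL was below outer ONL at a log2 fold change of -3.77 ± 0.47 (SE, edgeR adjusted p = 1.53e-06) and below olfactory nerve at -5.22 ± 0.49 (SE, edgeR adjusted p = 1.05e-09). Gdf10, a near relative of Bmp3, stood in olfactory nerve at 164, 409, 249 and 199.7 CPM, with 8.52, 59.5, 104 and 69.7 CPM in the outer ONL, 32.9, 35.8, 27.8 and 23.9 CPM in the inner ONL and 27.2, 41.3 and 40.9 CPM in trigeminal nerve. Olfactory nerve stood above the rest without overlap, by a log2 fold change of 2.81 ± 0.60 (SE, edgeR adjusted p = 6.80e-04) over trigeminal nerve, and outer and inner ONL were below it at -2.08 ± 0.52 (SE, edgeR adjusted p = 0.00366) and -3.08 ± 0.54 (SE, edgeR adjusted p = 3.40e-05). None of these 3 Gdf10 differences was called with the early libraries grouped by label (edgeR adjusted p = 0.175, 0.273 and 0.0633), nor was the Bmp2 difference between outer ONL and olfactory nerve (edgeR adjusted p = 0.0718). Each of these differences stayed called in a fit of its 2 groups alone.

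Bmp5 and Bmp6, of the same subgroup as Bmp7, did not share its pattern. Bmp5 was at 43.4, 72.3, 53.0 and 41.3 CPM in olfactory nerve, 36.7, 26.8, 45.0 and 33.7 CPM in the outer ONL, 33.3, 26.3, 31.6 and 32.5 CPM in the inner ONL and 12.9, 25.2 and 10.7 CPM in trigeminal nerve. The olfactory groups overlapped. Its exons share 46.7% of their length with the antisense gene Gm26903, and reads of both strands cannot be told apart with this unstranded kit. Bmp6 was at 13.1, 17.7, 17.1 and 16.7 CPM in the outer ONL, 1.49, 9.72, 1.11 and 2.33 CPM in olfactory nerve, 2.82, 4.21, 4.71 and 7.47 CPM in the inner ONL and 9.52, 8.55 and 8.90 CPM in trigeminal nerve. Outer ONL was above olfactory nerve by a log2 fold change of 2.14 ± 0.63 (SE, edgeR adjusted p = 0.0135), a call that was lost when olfactory nerve 1, 3 or 4 was left out (edgeR adjusted p up to 0.0580) or the early libraries were grouped by label (edgeR adjusted p = 0.0934). Gdf11, an activin-like ligand, ranged from 8.64 to 24.6 CPM over the 15 libraries of E16.5. Gdf5 and Gdf6, best known from joints, were near the floor, with at most 0.866 and 1.33 CPM. Exons of Gdf5 share 40.3% of their length with the antisense gene Gm15557, the same limit as for Bmp5. Gdf6 had 0 counts in all 8 ONL libraries. It was at 0.619, 0.495, 0.520 and 0.388 CPM in olfactory nerve and 0.937, 1.33 and 1.21 CPM in trigeminal nerve, at least 2.48-fold and 5.70-fold higher than in outer ONL at a floor of 3 counts per library.

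At E13.5 the ligands already differed between ONL and olfactory nerve. Several early pieces share an embryo, so the p-values over pieces are too small. Bmp7 was at 73.9, 91.8, 116, 117 and 166 CPM in ONL and 18.4 to 64.6 CPM (median 40.4) in olfactory nerve, without overlap. The log2 fold change between ONL and nerve was 1.40 and called, and it was -0.63 and not called with groups by label. Bmp2 fell from 5.94 to 28.6 CPM (median 12.4) in olfactory nerve to 1.66, 0.504, 2.54, 1.97 and 2.94 CPM in ONL, at a log2 fold change of -2.94 ± 0.51 (SE, edgeR adjusted p = 3.82e-05), and by label the value was -0.96 (edgeR adjusted p = 0.465). Bmp3 was at 36.9 to 78.2 CPM (median 50.5) in olfactory nerve and 14.4, 3.74, 9.43, 14.7 and 11.2 CPM in ONL, with a log2 fold change of -2.30 ± 0.37 (SE, edgeR adjusted p = 1.07e-05), by label -0.98 (edgeR adjusted p = 0.218). Gdf10 was at 62.4 to 176 CPM (median 86.0) in olfactory nerve and 19.9, 10.01, 16.3, 22.7 and 26.2 CPM in ONL, with a log2 fold change of -2.36 ± 0.46 (SE, edgeR adjusted p = 1.49e-04), by label -1.12 (edgeR adjusted p = 0.460). None of these 4 genes kept its E13.5 call by label. Gdf5 and Gdf6 were at 3 counts or fewer in every E13.5 ONL library, and E13.5 nerve was at least 3.7-fold and 2.48-fold above that floor. By label neither difference was called (edgeR adjusted p = 0.287 for Gdf5 and 0.337 for Gdf6).

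Over time, several ligands appeared in olfactory nerve between E11.5 and E13.5, in groups where pieces share embryos and p-values are too small. Gdf10 had 0.980, 0, 0 and 0.744 CPM at E11.5 and every library of E13.5 was higher. The log2 fold change was 7.73 ± 0.70 (SE, edgeR adjusted p = 7.26e-10), and by label 2.15 (edgeR adjusted p = 0.216). Bmp2 rose from 0.636, 0, 0.415 and 0.356 CPM by a log2 fold change of 5.40 ± 0.65 (SE, edgeR adjusted p = 1.50e-07), by label 2.77 (edgeR adjusted p = 0.0719). Bmp3 rose from 5.27, 10.4, 4.94 and 9.44 CPM by a log2 fold change of 2.79 ± 0.41 (SE, edgeR adjusted p = 3.51e-06), by label 2.03 (edgeR adjusted p = 0.0299). Bmp5 rose from 5.88, 3.26, 5.06 and 2.55 CPM to 14.2 to 30.2 CPM (median 19.1), by a log2 fold change of 2.29 ± 0.30 (SE, edgeR adjusted p = 6.49e-07), by label 1.38 (edgeR adjusted p = 0.0401). Of these 4 rises, those of Bmp3 and Bmp5 were also called by label. Bmp4 went from 20.5, 24.4, 18.7 and 22.5 CPM at E11.5 to 27.3 to 64.6 CPM (median 42.7) in E13.5 nerve, with 14.9, 29.9, 20.4, 23.6 and 20.8 CPM in E13.5 ONL. Both of these differences were called, and by label their log2 fold changes were 0.90 (edgeR adjusted p = 0.0729) over time and -0.66 (edgeR adjusted p = 0.148) between tissues.

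From E13.5 to E16.5, again with p-values over pieces that partly share embryos, olfactory nerve gained Bmp5 by a log2 fold change of 1.35 ± 0.26 (SE, edgeR adjusted p = 2.24e-04), by label 1.54 (edgeR adjusted p = 0.00743). Gdf10 gained a log2 fold change of 1.39 ± 0.43 (SE, edgeR adjusted p = 0.0155), by label 1.75 (edgeR adjusted p = 0.211), and the call was lost without olfactory nerve 2 of E16.5, the library with 409 CPM (edgeR adjusted p = 0.0966). Gdf11 fell from 26.8 to 78.0 CPM (median 37.1) to 12.6, 15.4, 11.6 and 24.6 CPM, at a log2 fold change of -1.43 ± 0.27 (SE, edgeR adjusted p = 1.58e-04), by label -1.41 (edgeR adjusted p = 5.04e-04). From E13.5 ONL to E16.5 outer ONL, Bmp5 rose from 10.2, 4.61, 3.77, 9.97 and 7.06 CPM by a log2 fold change of 2.36 ± 0.30 (SE, edgeR adjusted p = 2.44e-07), by label 2.17 (edgeR adjusted p = 6.10e-04). Bmp6 rose from 3.32, 1.73, 5.92, 6.44 and 4.98 CPM by a log2 fold change of 1.84 ± 0.58 (SE, edgeR adjusted p = 0.0120), by label 6.72 (edgeR adjusted p = 9.06e-06). Bmp3 rose by a log2 fold change of 1.67 ± 0.39 (SE, edgeR adjusted p = 9.68e-04), by label 0.65 (edgeR adjusted p = 0.435), and Gdf10 by 1.67 ± 0.49 (SE, edgeR adjusted p = 0.00640), by label 0.79 (edgeR adjusted p = 0.607). Outer ONL 1 lay inside the E13.5 range for Bmp3 and below it for Gdf10, and the other 3 libraries were above it. Inner ONL was not part of this contrast. It had Bmp5 above the E13.5 ONL range and Bmp6 and Gdf10 overlapping that range. Bmp3 in inner ONL was at 1.18 to 3.80 CPM, against 3.74 to 14.7 CPM in E13.5 ONL.

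**Figure D3:**
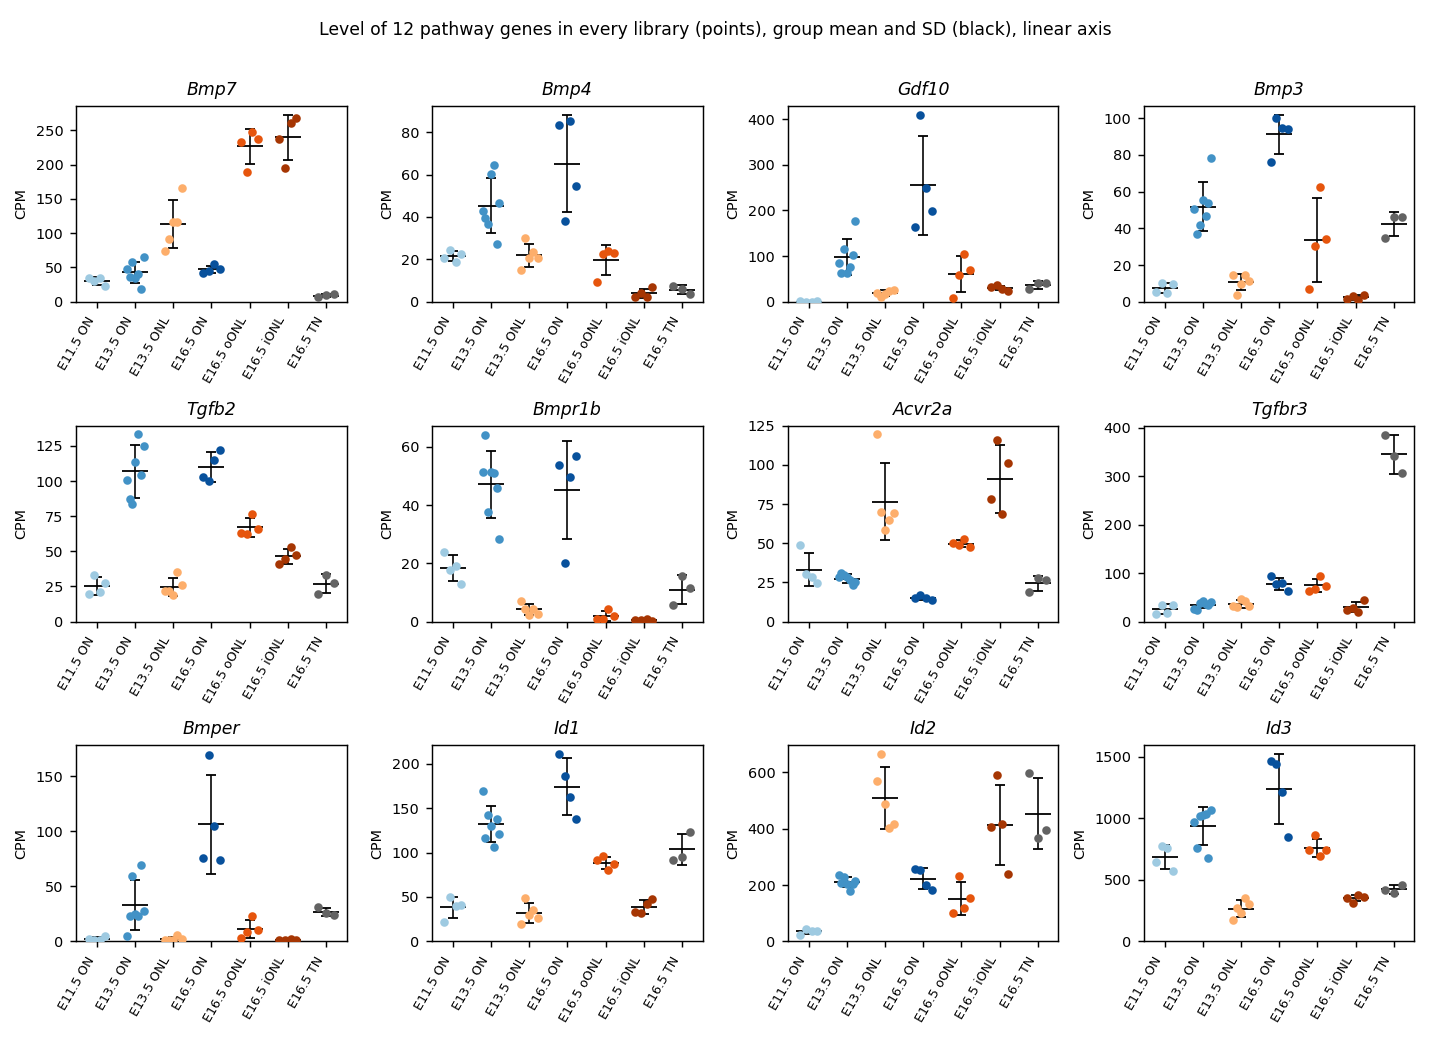
CPM (linear axis from 0) of 12 pathway genes in every library, with group mean and SD in black, for the 7 groups. With the groups of the study's averages, the means of Bmp7 and Acvr2a were higher in ONL than in olfactory nerve at E13.5 and E16.5, those of Bmp4, Gdf10, Bmp3, Tgfb2, Bmpr1b, Bmper, Id1 and Id3 were lower, and that of Tgfbr3 was highest in trigeminal nerve.

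Among the TGF-beta and activin ligands, Tgfb2 and Tgfb3 stood highest per kilobase in outer ONL, at 11.6 and 15.0 RPKM against 1.09 for Tgfb1. Tgfb2 (chr1:186622792-186705989) was at 103, 99.7, 115 and 122 CPM in olfactory nerve, 62.8, 62.6, 76.7 and 65.9 CPM in the outer ONL, 40.7, 44.8, 53.2 and 47.4 CPM in the inner ONL and 19.7, 33.2 and 27.6 CPM in trigeminal nerve. These 4 groups did not overlap, and olfactory nerve exceeded trigeminal nerve by a log2 fold change of 2.03 ± 0.22 (SE, edgeR adjusted p = 2.77e-08). Tgfb3 was highest in trigeminal nerve, at 135, 193 and 149.8 CPM in trigeminal nerve, 97.0, 139, 119.6 and 91.6 CPM in olfactory nerve, 23.6, 53.8, 65.5 and 60.1 CPM in the outer ONL and 93.7, 82.5, 55.8 and 48.0 CPM in the inner ONL. Outer ONL was below trigeminal nerve at a log2 fold change of -1.65 ± 0.28 (SE, edgeR adjusted p = 3.83e-05). Inhba, whose product forms activin A, was at 18.3, 21.5 and 27.6 CPM in trigeminal nerve and 4.22, 5.15, 1.99 and 5.37 CPM in the outer ONL, a log2 fold change of -2.42 ± 0.83 (SE, edgeR adjusted p = 0.0305) that was lost when any of the 7 libraries was left out (edgeR adjusted p up to 0.0892) and by label (edgeR adjusted p = 0.113). DESeq2 did not call this difference either, while a fit of these 2 groups alone did. Trigeminal nerve also had the highest mesenchyme sums, and the part of those cells was not tested. Tgfb1 stayed between 2.56 and 14.9 CPM at E16.5 and Inhbb at or below 1.33 CPM.

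Tgfb2 differed between the earlier groups, where p-values over pieces of shared embryos are too small. It was at 19.4, 33.0, 21.2 and 27.6 CPM in E11.5 olfactory nerve, 83.6 to 134 CPM (median 105) in E13.5 olfactory nerve and 21.6, 21.5, 18.8, 35.3 and 25.7 CPM in E13.5 ONL. The nerve rose by a log2 fold change of 2.08 ± 0.18 (SE, edgeR adjusted p = 4.40e-10), by label 1.93 (edgeR adjusted p = 0.00176), and ONL was below nerve at -2.12 ± 0.17 (SE, edgeR adjusted p = 4.37e-11), by label -1.04 (edgeR adjusted p = 0.0421). The gap between ONL and nerve was smaller at E16.5, and the interaction of stage and tissue, on the log2 scale, was 1.40 ± 0.25 (SE, edgeR adjusted p = 2.17e-04), by label 0.33 (edgeR adjusted p = 0.759). Tgfb3 lay in a like range in olfactory nerve at E11.5 (31.1, 29.5, 35.2 and 37.8 CPM) and E13.5 (25.6 to 52.4 CPM, median 32.9) and rose to E16.5 by a log2 fold change of 1.70 ± 0.23 (SE, edgeR adjusted p = 1.92e-06), by label 1.73 (edgeR adjusted p = 5.85e-06). Its log2 interaction was -1.07 ± 0.34 (SE, edgeR adjusted p = 0.0356), by label -1.12 (edgeR adjusted p = 0.0313), and was lost (edgeR adjusted p up to 0.0875) without the library labelled E11.5 olfactory nerve 1 or 4, E13.5 olfactory nerve 2 or 3, E16.5 olfactory nerve 2 or 3, or outer ONL 1. For Gdf11 the log2 interaction was 1.12 ± 0.37 (SE, edgeR adjusted p = 0.0436), by label 0.58 (edgeR adjusted p = 0.360), lost (edgeR adjusted p up to 0.125) without the library labelled E11.5 olfactory nerve 1, 2 or 3, E13.5 olfactory nerve 2, 3 or 5, E16.5 olfactory nerve 1, 2 or 3, or outer ONL 2 or 4.

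Bmpr1b, a type 1 BMP receptor also called Alk6 (chr3:141837136-142169425), was low in the ONL. It was at 53.7, 20.2, 49.5 and 56.9 CPM in olfactory nerve, 0.767, 0.942, 4.34 and 1.83 CPM in the outer ONL, 0.404, 0.376, 0.864 and 0.301 CPM in the inner ONL and 5.62, 15.7 and 11.51 CPM in trigeminal nerve. No ONL library overlapped either nerve. Outer ONL was below olfactory nerve at a log2 fold change of -4.51 ± 0.45 (SE, edgeR adjusted p = 1.15e-08) and below trigeminal nerve at -2.47 ± 0.44 (SE, edgeR adjusted p = 7.41e-05), inner ONL was below olfactory nerve at -6.55 ± 0.53 (SE, edgeR adjusted p = 4.81e-11), and olfactory nerve was above trigeminal nerve by 2.04 ± 0.44 (SE, edgeR adjusted p = 7.05e-04). Bmpr1a, the other type 1 receptor for the same ligands, spanned 35.1 to 104 CPM over the E16.5 libraries. In outer ONL the pair stood at 9.61 RPKM for Bmpr1a and 0.331 for Bmpr1b, and in olfactory nerve at 11.51 and 7.56. The epithelial list moved with Bmpr1b, from 146 to 493 CPM in olfactory nerve to 10.3 to 15.1 in outer ONL, and its part was not tested.

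Acvr2a (chr2:48814109-48903269), a type 2 receptor for activins and several BMPs, was the receptor that was higher in the ONL. It was at 78.0, 116, 68.9 and 101 CPM in the inner ONL, 49.9, 48.7, 52.9 and 47.4 CPM in the outer ONL, 14.9, 17.0, 15.0 and 13.7 CPM in olfactory nerve and 19.0, 28.0 and 26.5 CPM in trigeminal nerve. The 3 olfactory groups did not overlap. Outer ONL exceeded olfactory nerve by a log2 fold change of 1.71 ± 0.21 (SE, edgeR adjusted p = 2.84e-07), inner ONL exceeded outer ONL by 0.87 ± 0.20 (SE, edgeR adjusted p = 0.00258) and olfactory nerve by 2.59 ± 0.21 (SE, edgeR adjusted p = 7.91e-11). The bulb and forebrain list was higher in inner than in outer ONL, and its part in that step was not tested. Acvr2b, which binds the same ligands, was at 4.02 to 12.3 CPM in olfactory nerve, 1.99 to 6.96 in outer ONL, 3.50 to 7.15 in inner ONL and 1.37 to 3.53 in trigeminal nerve. Bmpr2, the BMP type 2 receptor, and Acvr1, a further type 1 receptor, ranged from 33.4 to 68.6 and 14.9 to 36.5 CPM over the 15 libraries.

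Tgfbr3 (chr5:107106570-107289629), or betaglycan, the co-receptor that presents Tgfb2, was highest in trigeminal nerve. Its levels were 386, 342 and 308 CPM there, against 93.4, 76.7, 80.4 and 62.2 CPM in olfactory nerve, 62.9, 67.7, 95.1 and 72.5 CPM in the outer ONL and 24.7, 28.7, 20.2 and 44.2 CPM in the inner ONL. Olfactory nerve was below trigeminal nerve at a log2 fold change of -2.14 ± 0.26 (SE, edgeR adjusted p = 2.38e-07) and outer ONL at -2.21 ± 0.26 (SE, edgeR adjusted p = 9.80e-08), with no overlap, and inner ONL was below outer ONL at -1.34 ± 0.24 (SE, edgeR adjusted p = 2.09e-04). The mesenchyme and Schwann cell sums were both highest in trigeminal nerve, and their parts were not tested. The signalling receptors Tgfbr1 and Tgfbr2 differed less, with 69.3 to 114 and 113 to 244 CPM in olfactory nerve, 50.1 to 109.9 and 113 to 221 in outer ONL, 38.5 to 65.7 and 85.9 to 136 in inner ONL and 87.1 to 118 and 184 to 339.5 in trigeminal nerve. By length, Tgfbr3 led the receptors of trigeminal nerve at 52.8 RPKM and Tgfbr2 those of olfactory nerve and outer ONL at 20.8 and 18.1 RPKM.

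At the earlier stages, with p-values over pieces that are too small where embryos are shared, Bmpr1b was at 23.9, 17.8, 18.9 and 13.0 CPM in E11.5 nerve, 28.4 to 64.1 CPM (median 51.2) in E13.5 nerve and 7.19, 4.32, 2.41, 4.36 and 2.65 CPM in E13.5 ONL. ONL and nerve did not overlap, and differed at a log2 fold change of -3.58 ± 0.38 (SE, edgeR adjusted p = 9.30e-09), by label -1.09 (edgeR adjusted p = 0.0962). Acvr2a was at 119.8, 70.2, 58.4, 64.7 and 69.5 CPM in E13.5 ONL and 23.5 to 30.8 CPM (median 28.2) in E13.5 nerve, also without overlap. Its log2 fold change was 1.47 and called, and -0.10 and not called by label. Acvr2b fell from 9.68, 32.7, 23.9, 18.6 and 21.2 CPM in E13.5 ONL to 3.84, 5.65, 1.99 and 6.96 CPM in E16.5 outer ONL, at a log2 fold change of -2.21 ± 0.39 (SE, edgeR adjusted p = 3.34e-05), by label -2.75 (edgeR adjusted p = 1.46e-05). Tgfbr2 rose in olfactory nerve from 46.9 to 69.9 CPM (median 59.5) to 177, 113, 244 and 145 CPM, by a log2 fold change of 1.5 ± 0.21 (SE, edgeR adjusted p = 4.60e-06), by label 1.52 (edgeR adjusted p = 1.28e-04). Bmpr1a, Bmpr2 and Tgfbr1 fell over the same interval, with mean levels in olfactory nerve of 117 and 73.1 CPM for Bmpr1a, 89.3 and 49.8 for Bmpr2, and 187 and 96.9 for Tgfbr1. All 3 falls were called under both groupings.

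Bmper (chr9:23223076-23485200), a secreted protein that binds BMPs and modulates their action on endothelium, was highest in olfactory nerve. It was at 76.1, 169, 105 and 73.8 CPM in olfactory nerve, 3.30, 8.35, 22.6 and 10.1 CPM in the outer ONL, 1.01, 1.13, 2.04 and 1.69 CPM in the inner ONL and 30.9, 26.1 and 24.0 CPM in trigeminal nerve. Olfactory nerve stood above all others and inner ONL below all others. By the study's in situ hybridization, OECs and Schwann cells did not express Bmper. Outer ONL was below olfactory nerve at a log2 fold change of -3.26 ± 0.60 (SE, edgeR adjusted p = 1.39e-04), and inner ONL was below outer ONL at -2.92 ± 0.65 (SE, edgeR adjusted p = 0.00183) and below olfactory nerve at -6.17 ± 0.71 (SE, edgeR adjusted p = 4.01e-08). Olfactory nerve exceeded trigeminal nerve by a log2 fold change of 1.97 ± 0.63 (SE, edgeR adjusted p = 0.0205), a call that was lost without olfactory nerve 2 or any trigeminal library (edgeR adjusted p up to 0.0721) and by label (edgeR adjusted p = 0.155). A fit of these 2 groups alone kept the call. The step from outer to inner ONL was not called by label either (edgeR adjusted p = 0.0520). Fst, which neutralises activins, was at 75.4, 94.5, 75.9 and 84.7 CPM in olfactory nerve and 21.8, 15.6 and 20.4 CPM in trigeminal nerve, with 19.7 to 33.4 CPM in outer and 21.7 to 42.5 in inner ONL, and olfactory nerve exceeded trigeminal nerve by a log2 fold change of 2.1 ± 0.37 (SE, edgeR adjusted p = 7.99e-05). Chrd, which encodes Chordin, was at 17.9, 15.0, 21.1 and 15.9 CPM in olfactory nerve and 2.29, 2.93, 2.28 and 5.06 CPM in the inner ONL, a log2 fold change of -2.47 ± 0.43 (SE, edgeR adjusted p = 2.99e-05), with 9.12, 20.3 and 19.0 CPM in trigeminal nerve.

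Fstl1, a secreted glycoprotein, was the most abundant gene of the 37 per kilobase in trigeminal nerve, at 430.0 RPKM. It was at 1968, 2379 and 1992 CPM in trigeminal nerve, 1735, 1927, 1916 and 1464 CPM in olfactory nerve, 869, 799, 1098 and 806 CPM in the outer ONL and 578, 465, 448 and 556 CPM in the inner ONL. The order of the 4 groups was that of the summed mesenchyme list, a description over groups whose cause was not tested. Chrdl1, a Chordin relative, was at 41.6, 49.4 and 49.3 CPM in trigeminal nerve, with 11.3 to 24.6 CPM in olfactory nerve, 14.3 to 28.8 in outer and 14.4 to 19.6 in inner ONL. Of the other BMP-binding antagonists, Nog was at no more than 3.14 CPM in any E16.5 library and Grem1 at no more than 1.72. Grem1 was at 3 counts or fewer in every outer ONL library and at 1.49, 0.495, 1.63 and 1.72 CPM in olfactory nerve, at least 6.53-fold higher at the same floor. Nog was at 7.97, 3.23, 4.19 and 4.72 CPM in E11.5 nerve and 0 to 2.24 CPM (median 0.889) in E13.5 nerve, a fall that was called, whereas by label the log2 fold change was 0.01 (edgeR adjusted p = 0.997). These p-values are too small, since pieces share embryos.

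Earlier, where pieces share embryos and p-values over them are too small, Bmper was at 2.57, 1.30, 1.08 and 4.78 CPM in E11.5 nerve, 4.73 to 69.4 CPM (median 25.1) in E13.5 nerve and 1.66, 1.30, 1.17, 5.71 and 1.86 CPM in E13.5 ONL. The range at E13.5 nerve was wide and reached into those of both other groups. Its log2 fold change was -3.85 ± 0.57 (SE, edgeR adjusted p = 3.21e-06) for ONL over nerve, by label -2.04 (edgeR adjusted p = 0.0547), and 3.76 ± 0.59 (SE, edgeR adjusted p = 1.19e-05) for nerve at E13.5 over E11.5, by label 3.58 (edgeR adjusted p = 0.00779). To E16.5 it gained a log2 fold change of 1.68 ± 0.47 (SE, edgeR adjusted p = 0.00777) in nerve, by label 1.85 (edgeR adjusted p = 0.0551), a call lost without olfactory nerve 2 of E16.5 (edgeR adjusted p = 0.0513). From E13.5 ONL to outer ONL the gain was 2.27 ± 0.59 (SE, edgeR adjusted p = 0.00243), by label 0.63 (edgeR adjusted p = 0.562). Inner ONL, at 1.01 to 2.04 CPM, overlapped E13.5 ONL. Fstl1 rose in nerve from 296, 258, 376 and 378 CPM at E11.5 to 946 to 1289 CPM (median 1151) at E13.5, by a log2 fold change of 1.81 ± 0.15 (SE, edgeR adjusted p = 2.43e-10), by label 1.20 (edgeR adjusted p = 0.00762). Chrdl1 was at 13.3, 16.9, 15.1, 19.7 and 11.4 CPM in E13.5 ONL and 1.14 to 5.64 CPM (median 2.43) in E13.5 nerve, and the groups did not overlap.

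For Chrdl1 the log2 excess of ONL at E13.5 was 2.44 ± 0.31 (SE, edgeR adjusted p = 2.97e-07), by label 0.66 (edgeR adjusted p = 0.234), with the same limit on p-values over pieces. Olfactory nerve then rose to E16.5 by a log2 fold change of 2.56 ± 0.32 (SE, edgeR adjusted p = 8.51e-07), by label 2.15 (edgeR adjusted p = 3.07e-04). At E16.5 outer ONL and olfactory nerve overlapped, and the log2 interaction of stage and tissue was -2.19 ± 0.48 (SE, edgeR adjusted p = 0.00199), by label -0.41 (edgeR adjusted p = 0.721).

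Smad6, which acts mainly on BMP signalling, was at 2.17, 2.54, 2.86 and 2.44 CPM in olfactory nerve, 0.537, 0.942, 0.854 and 0.916 CPM in the outer ONL, 0.135, 0.451, 0 and 0.482 CPM in the inner ONL and 3.46, 2.45 and 3.90 CPM in trigeminal nerve. Smad7, which acts on both branches, was at 6.68, 8.79, 7.22 and 6.37 CPM in olfactory nerve, 2.22, 5.21, 3.20 and 3.72 CPM in the outer ONL, 2.76, 3.16, 2.28 and 4.04 CPM in the inner ONL and 6.99, 3.75 and 5.84 CPM in trigeminal nerve. Both nerves lay above both ONL groups for Smad6, and for Smad7 both ONL groups overlapped trigeminal nerve. Each was called lower in inner ONL than in olfactory nerve, and Smad6 also in outer ONL.

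Id3 (chr4:136143497-136145755), whose stretch before the RefSeq start is printed above, was the most abundant of the Id genes in every E16.5 group per kilobase, with 693 RPKM in olfactory nerve and 236 in trigeminal nerve. It was at 1463, 1439.7, 1214 and 850.4 CPM in olfactory nerve, 746, 864, 695 and 742 CPM in the outer ONL, 355, 315, 374 and 363 CPM in the inner ONL and 419, 389.7 and 461 CPM in trigeminal nerve. Olfactory nerve and outer ONL overlapped, and inner ONL was below outer ONL at a log2 fold change of -1.12 ± 0.18 (SE, edgeR adjusted p = 4.35e-05). Id1 (chr2:152736251-152737410) was at 211, 187, 162 and 138 CPM in olfactory nerve, 91.5, 95.7, 80.4 and 86.6 CPM in the outer ONL, 33.4, 31.5, 42.6 and 47.4 CPM in the inner ONL and 91.5, 95.2 and 124 CPM in trigeminal nerve. Inner ONL was below outer ONL at a log2 fold change of -1.19 ± 0.22 (SE, edgeR adjusted p = 2.71e-04), without overlap, a call that was lost by label (edgeR adjusted p = 0.0580).

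Id2 (chr12:25093799-25097140) had another order than Id1 and Id3. It was at 405, 589.6, 418 and 239.6 CPM in the inner ONL, 101, 232, 119.8 and 154 CPM in the outer ONL, 258, 253, 199 and 182 CPM in olfactory nerve and 598, 366 and 396 CPM in trigeminal nerve. Every library of inner ONL and of trigeminal nerve was above those of outer ONL. Inner ONL exceeded outer ONL by a log2 fold change of 1.45 ± 0.24 (SE, edgeR adjusted p = 6.82e-05), and outer ONL was below trigeminal nerve at -1.58 ± 0.26 (SE, edgeR adjusted p = 1.71e-05). Between outer ONL and olfactory nerve the difference was not called (-0.56, 95% interval -1.02 to -0.09) in the fit of all libraries and was called with libraries paired by number (-0.63, edgeR adjusted p = 0.0426). Id4 (chr13:48261228-48266026) was low at E16.5, with 16.9, 11.4 and 13.0 CPM in trigeminal nerve, 7.30, 12.9, 6.57 and 12.8 CPM in olfactory nerve, 3.03, 5.19, 4.48 and 5.12 CPM in the inner ONL and 1.84, 2.83, 0.996 and 2.38 CPM in the outer ONL. The outer ONL was below trigeminal nerve at a log2 fold change of -2.76 ± 0.48 (SE, edgeR adjusted p = 4.39e-05), without overlap.

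At E13.5 the Id genes parted further, with p-values over pieces of shared embryos that are too small. Id1 was at 19.1, 48.9, 29.6, 35.5 and 26.3 CPM in ONL and 106 to 169 CPM (median 129.6) in nerve, a log2 fold change of -2.04 ± 0.20 (SE, edgeR adjusted p = 1.48e-09), by label -1.11 (edgeR adjusted p = 0.0224). Id3 was at 173, 271, 232, 354 and 305 CPM in ONL and 679 to 1071 CPM (median 1017) in nerve, and Id2 at 569, 664, 487, 402 and 416 CPM in ONL and 179.6 to 234 CPM (median 209) in nerve. Thus Id1 and Id3 were lower and Id2 was higher in every E13.5 ONL library than in every nerve library. All 3 differences were called. By label the log2 fold change was -0.12 (edgeR adjusted p = 0.743) for Id3 and -1.75 (edgeR adjusted p = 0.00400) for Id2. The gap between tissues differed from that at E16.5 by a log2 fold change of 1.06 ± 0.29 (SE, edgeR adjusted p = 0.0119) for Id1, by label 0.13 (edgeR adjusted p = 0.906), and the call was lost without olfactory nerve 4 of E16.5 (edgeR adjusted p just over 0.05). For Id3 the difference of log2 gaps was 1.10 ± 0.23 (SE, edgeR adjusted p = 0.00145), by label -0.59 (edgeR adjusted p = 0.274). For Id2 this log2 difference was -1.83 ± 0.31 (SE, edgeR adjusted p = 1.40e-04), by label 1.20 (edgeR adjusted p = 0.188), so that both Id2 and Id3 turned sign with the grouping.

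Over time Id2 rose in olfactory nerve from 23.5, 44.2, 36.6 and 36.9 CPM at E11.5, by a log2 fold change of 2.57 ± 0.24 (SE, edgeR adjusted p = 1.11e-09), whereas by label it fell, -1.15 (edgeR adjusted p = 0.0372). It fell from E13.5 ONL to E16.5 outer ONL at a log2 fold change of -1.74 ± 0.24 (SE, edgeR adjusted p = 6.39e-07), and by label it rose, 1.10 (edgeR adjusted p = 0.0432). The direction of Id2 over time therefore rests on the grouping of the early libraries, whose ONL OEC sums are given above. Inner ONL was not part of this contrast, and its Id2, at 405, 589.6, 418 and 239.6 CPM, overlapped the 402 to 664 CPM of E13.5 ONL. Id4 fell under both groupings. In olfactory nerve it went from 61.5, 83.4, 25.6 and 44.1 CPM at E11.5 and 24.9 to 54.8 CPM (median 30.9) at E13.5 to its E16.5 level, at a log2 fold change of -1.85 ± 0.39 (SE, edgeR adjusted p = 6.92e-04) from E13.5, by label -1.79 (edgeR adjusted p = 0.00319). From E13.5 ONL, at 11.1, 46.4, 12.2, 7.47 and 16.2 CPM, to E16.5 outer ONL it fell at a log2 fold change of -3.22 ± 0.46 (SE, edgeR adjusted p = 1.38e-06), by label -4.57 (edgeR adjusted p = 1.48e-07). These p-values are too small as well, since pieces share embryos.

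Counted over the 37 genes, the comparison of outer ONL with olfactory nerve at E16.5, pieces that hold OECs of the bulb or of the mucosa among other cells, called 19 genes, 3 higher (Bmp6, Bmp7 and Acvr2a) and 16 lower in outer ONL (Bmp2, Bmp3, Bmp4, Gdf6, Gdf10, Tgfb2, Tgfb3, Bmpr1b, Bmper, Grem1, Fst, Fstl1, Smad6, Id1, Id3 and Id4). Over all genes tested 22.0% were called, 10.2% higher and 11.8% lower. The median log2 fold change of the 37 was -0.73, against 0.01 over all genes. Scaling by total count in place of TMM moved the median of all genes to -0.13, their split from 1974 higher and 2282 lower to 1427 and 2758, and that of the 37 to 3 and 18. By role, the lower genes were 5 of 10 BMP and GDF ligands, 2 of 5 TGF-beta and activin ligands, 1 of 9 receptors, 4 of 7 antagonists, 1 of 2 inhibitory Smads and 3 of 4 Id genes. Of the receptors 22.2% were called in either direction, near the 22.0% over all genes. Of 48 further pathway genes tested, from a list of 63, 4 were higher and 20 lower. Smad2, which carries TGF-beta signals, was higher at 123 ± 33.9 CPM against 55.1 ± 9.38, a log2 fold change of 1.16 ± 0.16 (SE, edgeR adjusted p = 3.00e-06). Gata2, a transcription factor and BMP target, was lower at 7.45 ± 1.88 CPM against 136 ± 58.4 (log2 fold change -4.19 ± 0.37 SE, edgeR adjusted p = 1.32e-09), as was Sostdc1, a secreted BMP and Wnt inhibitor, at 9.07 ± 6.03 CPM against 111 ± 8.89 (log2 fold change -3.60 ± 0.58 SE, edgeR adjusted p = 2.05e-05). Fstl4, a Follistatin relative, was called at a log2 fold change of 0.96 ± 0.35 (SE, edgeR adjusted p = 0.0460), and the call was lost when any of the 8 libraries but outer ONL 3 was left out. Of 14 marker lists, 4 did not overlap between these groups. The glial and ONL OEC sums were higher in outer ONL and the epithelial and trigeminal neuron sums lower, while mesenchyme, also lower, overlapped, and their part was not tested.

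With libraries paired by number in a fit of these groups alone, 21 of the 32 genes that passed its filter were called, against 31.4% of all genes in that fit. Id2 and Tgfbr1 (-0.47, edgeR adjusted p = 0.0375) were gained, Chrd and Smad7 were gained with and without the pairing, and Gdf6 and Grem1 did not pass the filter. With the early libraries grouped by label in the shared fit, 11 stayed called and Bmp2, Bmp3, Bmp6, Gdf10, Tgfb2, Smad6, Id1 and Id3 did not (edgeR adjusted p from 0.0619 to 0.276). Over all 19332 genes that fit called 3105, in place of 4256.

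**Figure D4:**
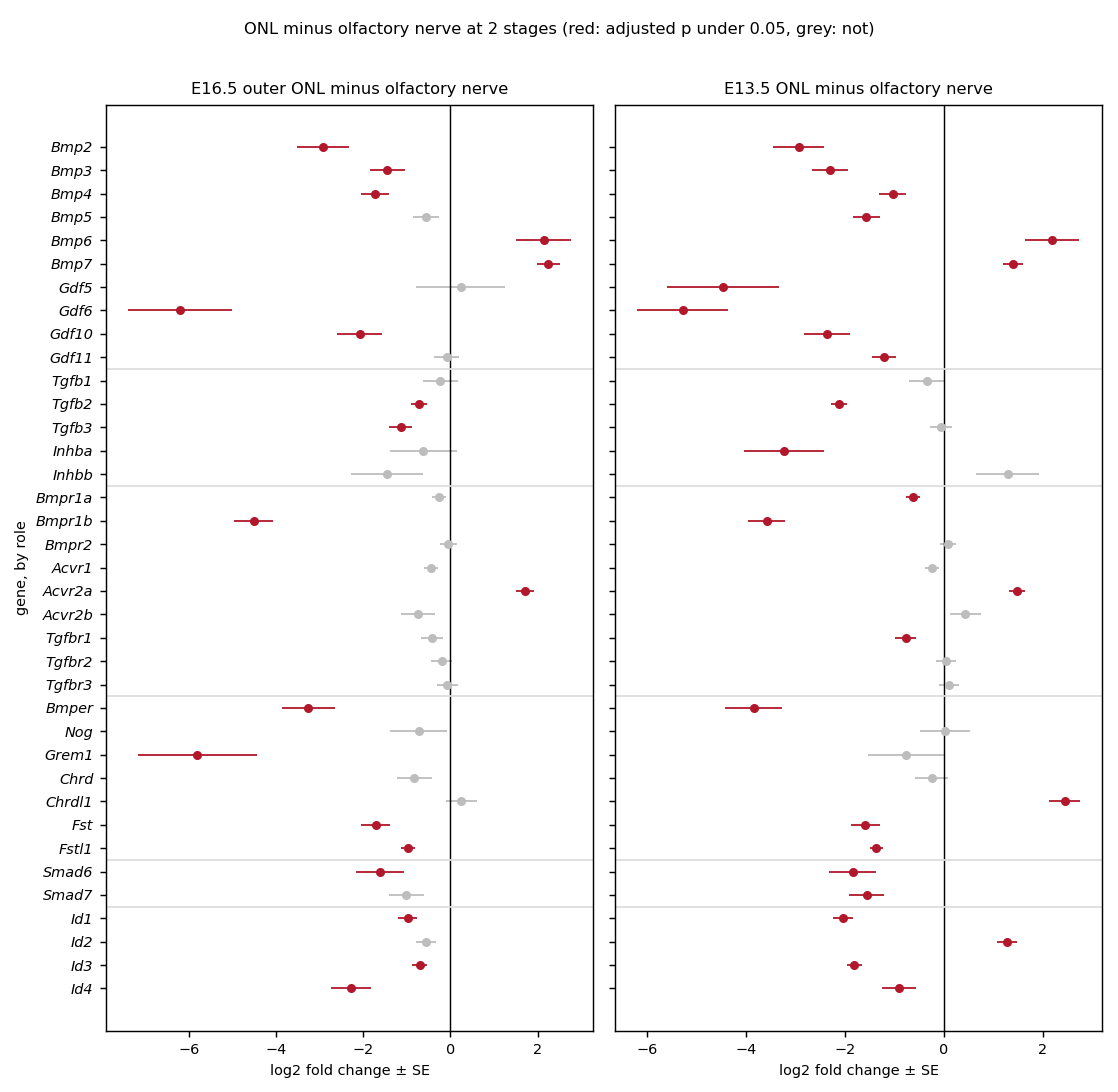
Log2 fold change ± SE of the 37 genes, ONL minus olfactory nerve, at E16.5 (outer ONL, left) and E13.5 (right), with red for edgeR adjusted p under 0.05. At E16.5 3 genes were higher and 16 lower in ONL, and at E13.5 5 were higher and 21 lower. Fitted values of Gdf5, Gdf6 and Grem1 rest on groups near 0 counts.

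Set against trigeminal nerve at E16.5, outer ONL had 21 called genes, 6 higher (Bmp4, Bmp5, Bmp7, Tgfb2, Id3 and Acvr2a) and 15 lower (Gdf6, Tgfb3, Inhba, Bmpr1a, Bmpr1b, Acvr1, Tgfbr2, Tgfbr3, Nog, Grem1, Chrdl1, Fstl1, Smad6, Id2 and Id4), with 25.8% of all genes called (2617 higher and 2372 lower). The median was -0.62, against 0.01 over all genes. With total counts the median of all genes was 0.13 and their split went to 3324 higher and 1975 lower, while that of the 37 stayed at 6 and 15. Receptors were mostly lower, with 5 of 9 (Bmpr1a, Bmpr1b, Acvr1, Tgfbr2 and Tgfbr3) lower and Acvr2a higher. Antagonists were lower in 4 of 7 and higher in none. Of the further pathway genes 5 were higher and 17 lower. Sostdc1 was at 950.0 ± 205 CPM in trigeminal nerve against 9.07 ± 6.03 in outer ONL (log2 fold change -6.71 ± 0.67 SE, edgeR adjusted p = 4.55e-09), and Msx1, a homeobox BMP target, at 195 ± 61.9 against 11.53 ± 4.20 (log2 fold change -4.08 ± 0.57 SE, edgeR adjusted p = 1.62e-06). Fstl4 at a log2 fold change of 5.22 ± 0.49 (SE, edgeR adjusted p = 1.29e-09) and Fstl5 at 3.48 ± 0.61 (SE, edgeR adjusted p = 5.54e-05) were higher in outer ONL. Of the 14 marker lists 8 did not overlap, with the Schwann cell, mesenchyme, meninges, epithelial and macrophage sums higher in trigeminal nerve and the glial, ONL OEC and bulb sums higher in outer ONL, and their part was not tested. By label 17 of the 21 stayed called, without Bmp5, Inhba, Tgfbr2 and Chrdl1 (edgeR adjusted p from 0.0731 to 0.142), and the count over all genes went from 4989 to 3922.

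Olfactory nerve against trigeminal nerve at E16.5, pieces that hold mucosal OECs or Schwann cells among other cells, gave 16 called genes, 11 higher in olfactory nerve (Bmp4, Bmp5, Bmp7, Gdf10, Tgfb2, Bmpr1b, Acvr2b, Bmper, Fst, Id1 and Id3) and 5 lower (Acvr2a, Tgfbr3, Nog, Chrdl1 and Id2). Over all genes 23.6% were called, 13.0% higher and 10.6% lower. The median was 0.12, against -0.01. The 4 called BMP and GDF ligands were all higher in olfactory nerve. Scaling by total count in place of TMM moved the median of all genes to 0.24 and the split over all genes from 2513 higher and 2050 lower to 3770 and 1096, and that of the 37 from 11 and 5 to 15 and 4. Of the further pathway genes 7 were higher and 6 lower. Fstl5 was at 188 ± 72.5 CPM in olfactory nerve and 1.73 ± 0.887 in trigeminal nerve (log2 fold change 6.76 ± 0.70 SE, edgeR adjusted p = 1.58e-08), Fstl4 differed by 4.25 ± 0.47 (SE, edgeR adjusted p = 4.77e-08), Msx1 at -3.79 ± 0.56 (SE, edgeR adjusted p = 5.38e-06) and Sostdc1 at -3.10 ± 0.57 (SE, edgeR adjusted p = 1.20e-04). By label 11 of the 16 stayed called, and Gdf10, Acvr2a, Bmper, Id1 and Id2 did not, while the count over all genes went from 4563 to 3447. Of the 14 marker lists 8 did not overlap. The epithelial sum was 146 to 493 CPM in olfactory nerve and 19.5 to 30.9 in trigeminal nerve, the trigeminal neuron sum 58.1 to 98.5 and 7.25 to 9.93, and the bulb and forebrain sum 51.3 to 115 and 3.39 to 5.62. The glial, ONL OEC and olfactory neuron sums were also higher in olfactory nerve and the mesenchyme and Schwann cell sums higher in trigeminal nerve, and the part of these lists was not tested.

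**Figure D5:**
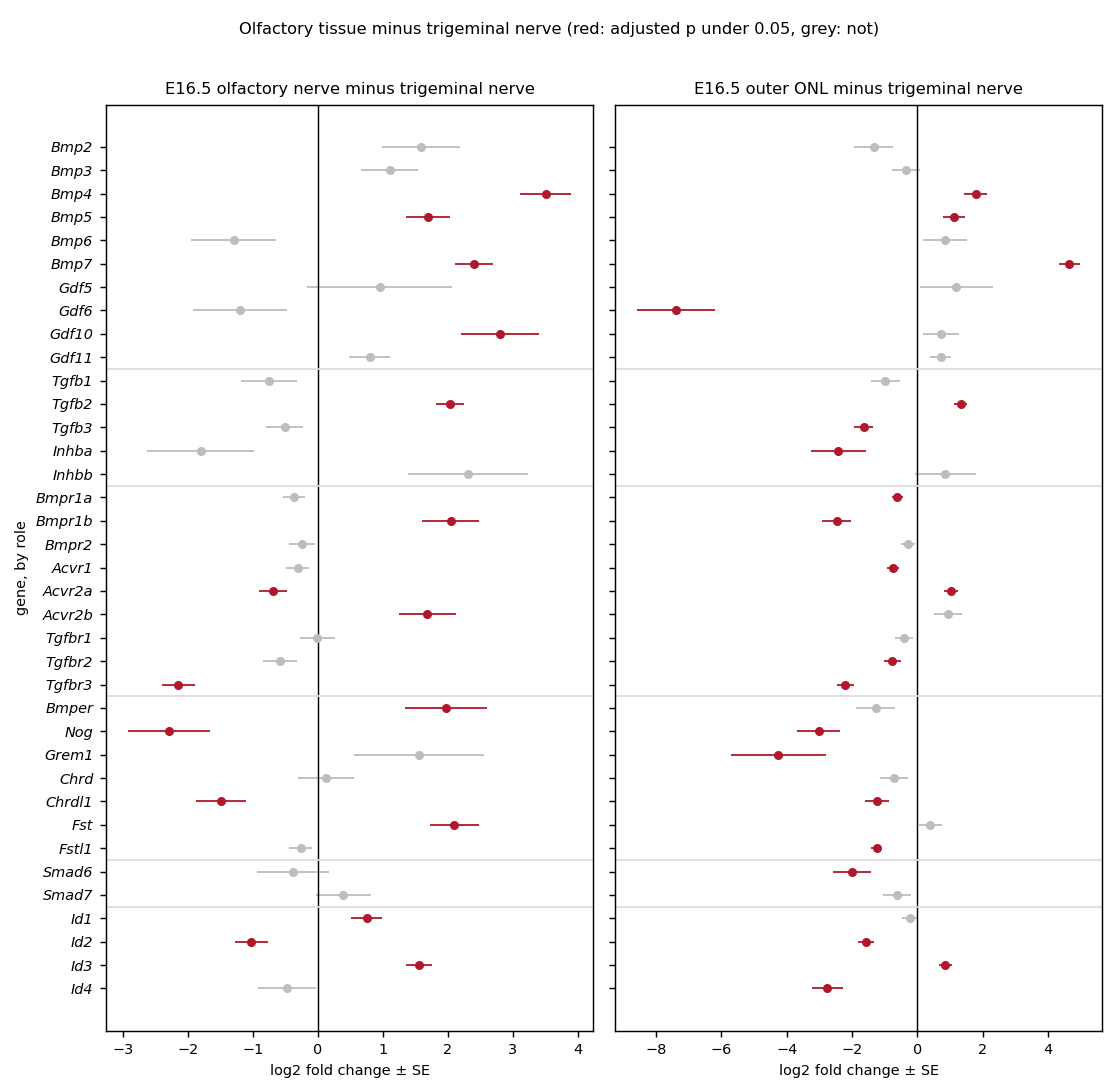
Log2 fold change ± SE of the 37 genes at E16.5, olfactory nerve minus trigeminal nerve (left) and outer ONL minus trigeminal nerve (right), with red for edgeR adjusted p under 0.05. Both comparisons share the 3 trigeminal libraries. Of the 37 genes, 11 were higher and 5 lower in olfactory nerve, and 6 higher and 15 lower in outer ONL.

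Within the ONL, inner against outer at E16.5 gave 12 called genes, 2 higher (Acvr2a and Id2) and 10 lower (Bmp3, Bmp4, Inhba, Bmpr1b, Tgfbr3, Bmper, Chrd, Fstl1, Id1 and Id3) in inner ONL. Over all genes 14.1% were called, 8.20% higher and 5.94% lower. The median was -0.39, against -0.05. Further pathway genes were higher in 7 and lower in 10. Fstl5 was higher at 148 ± 60.3 CPM against 19.3 ± 14.7 (log2 fold change 2.93 ± 0.50 SE, edgeR adjusted p = 8.97e-05), as was Dlx5, a homeobox BMP target, by 1.78 ± 0.35 (SE, edgeR adjusted p = 5.30e-04). Ctgf, a TGF-beta target, was lower at a log2 fold change of -2.46 ± 0.39 (SE, edgeR adjusted p = 4.06e-05) and Nbl1, a BMP antagonist, at -2.43 ± 0.45 (SE, edgeR adjusted p = 2.20e-04). Of the 14 marker lists 8 did not overlap, with the bulb and olfactory neuron sums higher and the Schwann cell, endothelial, mesenchyme, meninges, epithelial and macrophage sums lower in inner ONL, and their part was not tested. The ONL OEC sums overlapped, at 1961 to 3570 CPM in inner and 2230 to 4209.6 CPM in outer ONL. By label 7 of the 12 stayed called, without Bmpr1b, Bmper, Fstl1, Inhba and Id1, and the count over all genes went from 2733 to 1658.

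Inner ONL against olfactory nerve at E16.5 gave 28 called genes, 3 higher (Bmp7, Acvr2a and Id2) and 25 lower, and 35.5% of all genes were called, 17.7% higher and 17.8% lower. The median was -1.15, against 0.00. With total counts the median of all genes was -0.14 and their split went from 3415 higher and 3444 lower to 2648 and 4068, while that of the 37 stayed at 3 and 25. Not called were Bmp6, Gdf5, Gdf11, Tgfb1, Inhbb, Bmpr2, Acvr2b, Nog and Chrdl1. Of the further genes 6 were higher and 25 lower, among them Rgmb, a BMP co-receptor, higher by a log2 fold change of 1.51 ± 0.20 (SE, edgeR adjusted p = 5.29e-07) and Fstl4 by 2.11 ± 0.36 (SE, edgeR adjusted p = 2.23e-05), and Sostdc1 lower at -7.48 ± 0.75 (SE, edgeR adjusted p = 3.38e-09) and Ctgf at -5.78 ± 0.44 (SE, edgeR adjusted p = 1.60e-11). Between these groups 12 of the 14 marker lists did not overlap. The mesenchyme sum was 921 to 2168 CPM in the inner ONL and 9552 to 16189.7 in olfactory nerve, the Schwann cell, endothelial, bone and cartilage, meninges, epithelial, trigeminal neuron and macrophage sums were lower in inner ONL too, and the glial, ONL OEC, olfactory neuron and bulb sums were higher. Their part was not tested. By label 21 of the 28 stayed called, without Bmp5, Gdf10, Tgfb3, Tgfbr2, Grem1, Id2 and Id4 (edgeR adjusted p from 0.0535 to 0.245), and the count over all genes went from 6859 to 5975.

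At E13.5, ONL against olfactory nerve gave 26 called genes, 5 higher (Bmp6, Bmp7, Acvr2a, Chrdl1 and Id2) and 21 lower in ONL, and 31.5% of all genes were called, 15.4% higher and 16.1% lower. Lower were Bmp2, Bmp3, Bmp4, Bmp5, Gdf5, Gdf6, Gdf10, Gdf11, Tgfb2, Inhba, Bmpr1a, Bmpr1b, Tgfbr1, Bmper, Fst, Fstl1, Smad6, Smad7, Id1, Id3 and Id4. The median was -0.91, against -0.03 over all genes. All 10 BMP and GDF ligands were called, 2 higher and 8 lower. By label there were 11 called, 1 higher and 10 lower, with 17.7% of all genes called, 8.88% higher and 8.81% lower, and 7 genes were called under both groupings, of which Bmp6 and Id2 had the opposite sign. Some of these pieces share an embryo, so the p-values are too small. Further pathway genes were higher in 4 and lower in 20. Rgmb was higher by a log2 fold change of 1.71 ± 0.16 (SE, edgeR adjusted p = 1.20e-09), by label 0.25 (edgeR adjusted p = 0.535), and Acvr1b, an activin type 1 receptor, by 0.83 ± 0.24 (SE, edgeR adjusted p = 0.00688), by label -0.31 (edgeR adjusted p = 0.399). Gata2 was lower at a log2 fold change of -4.68 ± 0.34 (SE, edgeR adjusted p = 8.33e-12), by label -1.04 (edgeR adjusted p = 0.157), and Dlx5 at -3.13 ± 0.32 (SE, edgeR adjusted p = 3.83e-09), by label -0.29 (edgeR adjusted p = 0.612). Of the 14 marker lists 7 did not overlap. Higher in ONL were the glial sum, 4301 to 6731 CPM against 481 to 1064.5 in nerve, the ONL OEC sum, 409 to 733 against 46.3 to 94.3, the olfactory neuron sum, 3061 to 4980 against 979 to 1864, and the bulb and forebrain sum, 619.9 to 812 against 99.1 to 207. Lower were the epithelial sum, 3.96 to 12.7 CPM against 231 to 451, the meninges sum, 228 to 339 against 1009 to 1338, and the Schwann cell sum, 79.1 to 125 against 206 to 271. By label all 14 lists overlapped, with bulb and forebrain genes at 82.9 to 153 CPM in ONL and 99.1 to 670 in nerve. The part of these cells was not tested.

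From E11.5 to E13.5 in olfactory nerve 26 genes were called, 23 higher and 3 lower (Acvr2b, Nog and Chrdl1) at E13.5. The 23 were Bmp2, Bmp3, Bmp4, Bmp5, Bmp6, Gdf5, Gdf6, Gdf10, Gdf11, Tgfb2, Inhba, Bmpr1a, Bmpr1b, Bmpr2, Acvr1, Tgfbr2, Bmper, Fst, Fstl1, Smad7, Id1, Id2 and Id3, with 36.6% of all genes called, 20.2% higher and 16.4% lower. The median was 1.16, against 0.05 over all genes. The higher genes included 9 of 10 BMP and GDF ligands and 5 of 9 receptors. By label 16 were called, 13 higher and 3 lower, with 17.5% of all genes called, 9.31% higher and 8.18% lower, and 14 were called under both groupings, of which Id2 had the opposite sign. P-values over these pieces, of 2 and 4 embryos, are too small. Of the further pathway genes 24 were higher and 3 lower. Runx2, a bone regulator and BMP target, was higher by a log2 fold change of 5.74 ± 0.64 (SE, edgeR adjusted p = 4.51e-08), by label 0.97 (edgeR adjusted p = 0.510), and Eng, an endothelial co-receptor, by 2.42 ± 0.34 (SE, edgeR adjusted p = 1.74e-06), by label 0.75 (edgeR adjusted p = 0.279). Mstn, a Gdf11 relative, was at 3 counts or fewer in 5 of 7 libraries of E13.5 and lower at a log2 fold change of -6.93 ± 0.84 (SE, edgeR adjusted p = 1.92e-07), by label -0.07 (edgeR adjusted p = 0.984). Of the 14 marker lists 7 did not overlap. Endothelial genes summed to 25.8 to 182 CPM at E11.5 and 394 to 571 at E13.5 (8 genes), mesenchyme genes to 2187 to 2883 and 3546 to 6416, meninges genes to 508 to 733 and 1009 to 1338 and Schwann cell genes to 68.3 to 94.8 and 206 to 271. The mural and epithelial sums were higher too, and the olfactory neuron sum was lower, from 2882 to 3680 CPM at E11.5 to 979 to 1864 at E13.5. By label only the olfactory neuron list did not overlap, also lower at E13.5. The part of these cells was not tested.

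From E13.5 to E16.5 in olfactory nerve 18 genes were called, 11 higher (Bmp5, Bmp6, Gdf10, Tgfb3, Tgfbr2, Tgfbr3, Bmper, Chrd, Chrdl1, Fstl1 and Id3) and 7 lower (Gdf11, Bmpr1a, Bmpr2, Acvr2a, Acvr2b, Tgfbr1 and Id4), with 28.8% of all genes called, 15.2% higher and 13.6% lower. The median was 0.15, against -0.02. By label 13 were called, with 25.1% of all genes, and all 13 were among the 18 with the same sign. P-values over the E13.5 pieces are too small because some share an embryo. Further pathway genes were higher in 11 and lower in 7. Sostdc1 was higher by a log2 fold change of 4.88 ± 0.50 (SE, edgeR adjusted p = 2.21e-08), by label 5.08 (edgeR adjusted p = 5.67e-06), and Fstl4 by 4.15 ± 0.35 (SE, edgeR adjusted p = 7.63e-10), by label 2.60 (edgeR adjusted p = 0.00164). Acvr1b was lower at a log2 fold change of -1.15 ± 0.27 (SE, edgeR adjusted p = 0.00172), by label -1.36 (edgeR adjusted p = 7.77e-04), and Dlx5 at -0.85 ± 0.30 (SE, edgeR adjusted p = 0.0314), by label -0.73 (edgeR adjusted p = 0.186), a call lost without E13.5 olfactory nerve 3 or 4 or E16.5 olfactory nerve 2 or 3. Among the marker lists, 9 of 14 did not overlap. Mesenchyme genes summed to 3546 to 6416 CPM at E13.5 and 9552 to 16189.7 at E16.5, mural genes to 240 to 459 and 957 to 2897, endothelial genes to 394 to 571 and 633 to 1176.5 and glial genes to 481 to 1064.5 and 1661 to 3906. The ONL OEC, Schwann cell, bone and cartilage and macrophage sums were higher at E16.5 too, and the meninges sum was lower, from 1009 to 1338 CPM to 504 to 830. By label 6 lists did not overlap, all higher at E16.5, the mesenchyme, mural and endothelial lists among them and the glial list not. The part of these cells was not tested.

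From E13.5 ONL to E16.5 outer ONL 23 genes were called, 15 higher (Bmp3, Bmp5, Bmp6, Bmp7, Gdf10, Tgfb1, Tgfb2, Tgfb3, Inhba, Tgfbr2, Tgfbr3, Bmper, Fstl1, Id1 and Id3) and 8 lower (Inhbb, Bmpr2, Acvr2a, Acvr2b, Nog, Grem1, Id2 and Id4), with 41.9% of all genes called, 21.9% higher and 20.0% lower. The median was 0.30, or 0.23 with genes at the floor set to their bound, against 0.00 over all genes. All 5 TGF-beta and activin ligands and all 4 Id genes were called, Tgfb1, Tgfb2, Tgfb3, Inhba, Id1 and Id3 higher and Inhbb, Id2 and Id4 lower. By label 17 were called, with 35.2% of all genes, 12 of them under both groupings, of which Acvr2a and Id2 had the opposite sign. P-values over the E13.5 pieces are too small because some share an embryo. Further pathway genes were higher in 15 and lower in 8, with Ltbp1, which holds TGF-beta latent, higher by a log2 fold change of 2.47 ± 0.32 (SE, edgeR adjusted p = 3.08e-07), by label 1.49 (edgeR adjusted p = 4.31e-04), and Fstl4 by 1.86 ± 0.34 (SE, edgeR adjusted p = 4.92e-05), by label 9.51 (edgeR adjusted p = 2.77e-08). Fstl5 was lower at a log2 fold change of -2.36 ± 0.48 (SE, edgeR adjusted p = 1.91e-04), by label -3.92 (edgeR adjusted p = 6.97e-06), and Skil, a Smad repressor, at -2.17 ± 0.28 (SE, edgeR adjusted p = 2.99e-07), by label -1.78 (edgeR adjusted p = 2.40e-05). Between these stages 10 of the 14 marker lists did not overlap. The bulb and forebrain sum went from 619.9 to 812 to 6.21 to 56.7 CPM and the glial sum from 4301 to 6731 to 18668 to 32874. The olfactory and trigeminal neuron sums were also lower at E16.5, and the ONL OEC, Schwann cell, endothelial, mural, mesenchyme and bone and cartilage sums higher. By label 10 lists did not overlap, with the epithelial list lower in place of the bone and cartilage list higher. The part of these cells was not tested.

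Whether the step from nerve to ONL changed between E13.5 and E16.5 was tested as an interaction, and 9 of the 37 genes were called, 5 upward (Gdf5, Gdf11, Tgfb2, Id1 and Id3) and 4 downward (Tgfb3, Grem1, Chrdl1 and Id2), with 12.3% of all genes called, 5.59% upward and 6.75% downward. Upward means a higher value of outer ONL relative to nerve at E16.5 than of ONL relative to nerve at E13.5. None of the 9 receptors was called by edgeR or DESeq2. At an unadjusted p under 0.05 edgeR gave 1 of the 9, and 4627 of all 19332 genes. Against 12.3% of all genes called, none of 9 is too few genes to read as a result about receptors. By label 9 were also called, with 12.5% of all genes, but Tgfb3 was the only gene called under both groupings. Without the library labelled E11.5 olfactory nerve 1, the shallowest, 5 of the 37 were called, and 2357 of all 19289 genes tested. Some early pieces share an embryo, so the p-values are too small. Of the 48 further genes tested, 4 changed upward and 5 downward.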

How the data were processed

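Nerve pieces from Sox10:H2BVenus embryos had been amplified with SMART-seq v4, made into libraries with Nextera XT, which does not mark strand, and sequenced on a NextSeq 500. The authors aligned reads to mm10 (Ensembl annotation) with TopHat2 version 2.1.0 and counted them per gene with HTSeq, and the deposited values are raw counts of 47729 genes in 31 libraries. One row without a gene name was left out. Columns of group averages served only to find which libraries they average, by non-negative least squares, and 10 of 31 libraries then differ from their label.

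From the counts, CPM with TMM factors and RPKM over exon length were computed, and 1 edgeR 4.0.16 quasi-likelihood model of all libraries and 7 groups was fitted in R 4.3.3 (filterByExpr, 19332 genes, Benjamini-Hochberg adjustment, threshold 0.05). All group comparisons and the interaction are contrasts of that model. The pathway genes and every gene list were chosen with earlier results of these data known. Full statistics are given for called genes with at least 10 CPM in the higher group, up to 8 per comparison by size of change, and for up to 2 further pathway genes in each direction, except in the interaction, where these are only counted. One more gene is not reported here. A floor of 3 counts per library stands for values at 0, and floors and totals cover counting error only. The labels number replicates, but nothing says which libraries share an embryo. Over 10727 genes the deviations from the group mean of same-numbered libraries correlated at 0.256 to 0.531 between outer ONL and olfactory nerve of E16.5. In every other comparison at least 1 such pair was at 0.1 or less. Outer ONL and olfactory nerve are therefore also given as pairs. Libraries of different number correlated at -0.389 to 0.386 between these groups, an overlapping range, and reached 0.518 between olfactory and trigeminal nerve. The numbers are thus not known to mark embryos.

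Alternatives were groups by label, DESeq2 1.42.0, total-count scaling, no filter, each comparison's groups alone with and without the replicate block, and each library left out. On simulated counts for outer ONL against olfactory nerve, with 19332 genes, edgeR called 54 of 100 genes changed by a log2 fold change of 1 and 96 of 100 changed by 2.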

Additional observations from a re-analysis of the deposited data

Results flagged for a closer look

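There were 6 values that stood apart from the rest of their group, among 134 gene and group pairs tested by Dixon's ratio, or 4.48 per 100, where chance gives about 1 in 20. Bmp4 was at 9.28 CPM in outer ONL 1, the library with the highest glial and lowest mesenchyme sum of its group, and at 22.3 to 24.1 CPM in the other three. Tgfb3 was at 52.4 CPM in E13.5 olfactory nerve 7 and at 25.6 to 35.9 CPM in the rest of that group. Bmpr2 was at 44.2 CPM in E16.5 olfactory nerve 1, against 51.0 to 52.3 CPM. In the E13.5 ONL group, Acvr2a was at 119.8 CPM in the library labelled E11.5 olfactory nerve 1, the shallowest of all, against 58.4 to 70.2 CPM, and Id4 was at 46.4 CPM in the library labelled E11.5 olfactory nerve 2, against 7.47 to 16.2 CPM. In the E13.5 olfactory nerve group, Fst was at 137 CPM in the library labelled E13.5 ONL 1, against 50.2 to 82.5 CPM. Acvr2a, Id4 and Fst stood out with the groups of the study's averages.

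For 9 genes the difference between ONL and olfactory nerve was itself called different at E16.5 and E13.5 by the edgeR interaction, on the log2 scale. Upward were Tgfb2 at 1.40 (by label 0.33), Id3 at 1.10 (by label -0.59), Id1 at 1.06 (by label 0.13), Gdf11 at 1.12 (by label 0.58) and Gdf5 at 4.70 (by label 1.76). Downward were Chrdl1 at -2.19 (by label -0.41), Id2 at -1.83 (by label 1.20), Tgfb3 at -1.07 (by label -1.12) and Grem1 at -5.04 (by label -3.69). Only Tgfb3 was called under both groupings. The values of Gdf5 and Grem1 rest on groups with every library at 3 counts or fewer and are not bounds.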

How the results depend on the processing

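Grouping the early libraries by their labels changed the results most. The count of pathway genes called went from 19 to 11 for outer ONL against olfactory nerve, 12 to 7 for inner against outer ONL, 26 to 11 for ONL against olfactory nerve at E13.5 and 26 to 16 for olfactory nerve from E11.5 to E13.5. Of the called log2 fold changes of the 37 genes, 16 had the opposite sign by label. They were those of Bmp6 (-3.42), Bmp7 (-0.63), Acvr2a (-0.10), Tgfbr1 (0.10), Id2 (-1.75) and Id4 (0.48) between E13.5 ONL and nerve, of Bmp6 (-1.42), Bmpr2 (-0.09), Tgfbr2 (-0.05), Nog (0.01) and Id2 (-1.15) from E11.5 to E13.5 in nerve, of Acvr2a (0.66), Id2 (1.10) and Id3 (-0.0022) from E13.5 ONL to E16.5 outer ONL, and of Id2 (1.20) and Id3 (-0.59) in the interaction. Acvr1b, a further pathway gene, also changed sign between E13.5 ONL and nerve (-0.31). Over all genes, label groups moved the count called from 4256 to 3105 for outer ONL against olfactory nerve, from 2733 to 1658 for inner against outer ONL, from 6087 to 3421 for E13.5 ONL against nerve and from 7071 to 3380 for nerve from E11.5 to E13.5. The cause was not tested. Among the log2 fold changes of named genes, DESeq2 ended 1 call and kept direction and side of the threshold for 113, and no filter and total-count scaling each ended 2 and kept 112, with no reversal.

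Leaving out 1 library at a time gave the following counts, with those over all 19204 to 20078 genes tested in brackets. Outer ONL against olfactory nerve had 18 to 21 called genes (3218 to 4097). Against trigeminal nerve there were 17 to 23 for outer ONL (3986 to 4993) and 13 to 18 for olfactory nerve (3302 to 4198). Inner against outer ONL had 11 to 12 (2012 to 2665) and inner ONL against olfactory nerve 23 to 26 (5912 to 6361). ONL against nerve at E13.5 had 25 to 26 (5435 to 5901). Nerve had 23 to 28 from E11.5 to E13.5 (6330 to 7010) and 15 to 19 from E13.5 to E16.5 (4116 to 5382). From E13.5 ONL to outer ONL there were 20 to 23 (7104 to 8115). The interaction had 5 to 9 (1868 to 2476), with 5 (2357) when the library labelled E11.5 olfactory nerve 1 was left out. Without E16.5 olfactory nerve 3, the split over all genes from E13.5 to E16.5 in nerve was 2657 higher and 1459 lower.

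With the replicate block in a fit of the groups alone, 21 genes were called for outer ONL and olfactory nerve paired by number, as given in the report. In the other comparisons same-number correlations ran from -0.323 to 0.295, and numbers were not taken as pairs. Against trigeminal nerve the block gave 17 for outer ONL (3317 of all 16160 genes tested) and 17 for olfactory nerve (3183 of 16653). It gave 15 for inner against outer ONL (2721 of 15717) and 26 for inner ONL against olfactory nerve (6396 of 16338). The fit of all libraries called 4989 genes for outer ONL against trigeminal nerve. No paired analysis was possible for the early groups because the study's averages mix replicate numbers of several labels. Depth limits Gdf5, Gdf6 and Grem1, each at 3 counts or fewer in every library of at least 1 group.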
